A study of Hydra vulgaris with 36 samples.

Results

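What still differed between DAPT-treated and control Hydra 6 h after the inhibitor was taken away was measured in 12 of the 36 libraries of the series, chosen by their labels: 6 of DAPT animals and 6 of DMSO animals. All were whole polyps of Hydra vulgaris, a freshwater cnidarian, of the strain Basel. The DAPT animals were starved for 24 h, spent 48 h in 20 µM DAPT with 1% DMSO, renewed at 12 h intervals, and then 6 h in 1% DMSO alone. The DMSO animals were starved alike and were in 1% DMSO for the 48 h and the 6 h, so both groups had the solvent throughout. About 25 animals were pooled in each library, and each group had 6 biological replicates per the labels. The other 24 libraries were taken at 0 h, when the incubation ended, and at 3 h, with the same 2 treatments. The table names genes by identifiers of a Trinity transcript assembly and does not pair them with gene names, and no identifier matched the reference gene table given. Genes are therefore described by abundance, fold size and time, no marker of a tissue or cell type could be checked, and 2 lower and 2 higher genes are given by identifier. The columns carry the letters P and S, read as DAPT and DMSO because P occurs in the word DAPT and not in DMSO, and S in DMSO and not in DAPT. Under the opposite reading each direction below would be mirrored.

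DAPT inhibits gamma-secretase, the membrane protease that cuts the Notch receptor after it has bound its ligand on a neighbouring cell. The cut frees the intracellular part of Notch, which enters the nucleus, joins the DNA-binding protein CSL and switches on target genes such as those of the Hes family of repressors. In Hydra, interstitial stem cells keep supplying stinging cells (nematocytes), nerve cells, gland cells and germ cells, and DAPT is known to stop the maturation of nematocytes after their last division. The stated purpose of the study was to find target genes of Notch signalling from DAPT against control animals at the 3 times. A later sample can show which differences outlast the inhibitor. In whole animals, fewer cells of a type and less RNA per cell cannot be told apart, and which cells the genes below belong to was not tested. A lasting loss of cell states can therefore be set beside the lower transcripts only as a whole, not gene by gene.

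Depth was 7529491 to 10913483 counts per library in DAPT (mean 8855186, median 8322621). In DMSO it was 5692414 to 10127546 (mean 7372750, median 6319970). The difference did not pass an exact permutation test (two-sided p = 0.182), which does not show that depth was alike in the groups. The 20 genes with the most counts took 28.2 ± 3.98% of a library in DAPT and 29.8 ± 2.54% in DMSO (SD, n = 6 each; exact p = 0.416). Distances between the libraries, taken from the 500 genes that differed most in each pair, ran along 2 directions. The first, with 39.5% of the variance, did not follow the treatment: DMSO replicate 4 and DAPT replicate 6 lay together at one end, at 1.80 and 1.73, and DMSO replicate 1 at the other, at -1.65. The second, with 22.3%, set the 6 DAPT libraries (0.36 to 0.92) apart from the 6 DMSO libraries (-1.20 to -0.36). DMSO replicate 4 stood apart from its group. Its median Spearman correlation with the other DMSO libraries was 0.834, against 0.919 to 0.959 for the other 5, its closest library was DAPT replicate 6 (rho 0.933), and 1091 genes fell under 1 count-per-million (CPM) in it, against 143 to 443. In it, 34.5% of genes were at least 2-fold away from the mean of the other 5 DMSO libraries, against 2.11% to 14.0% for those 5. The calls, the shares of reads, the named genes and the calls at the other times are therefore given below with and without it.

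**Figure D1:**
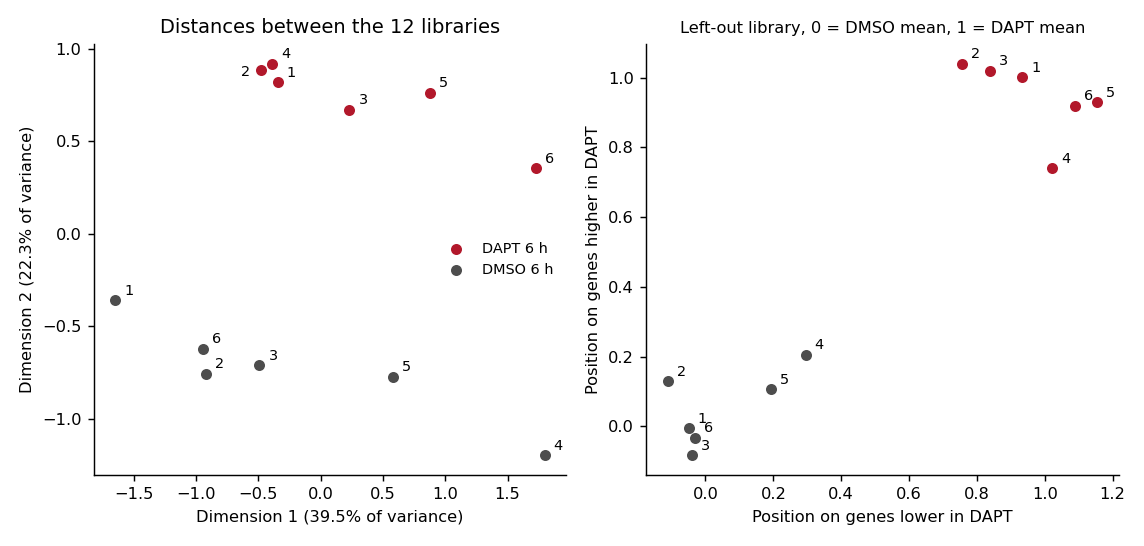
Left, the 12 libraries in a multidimensional scaling plot of log2 CPM, with axes in units of log2 fold change and replicate numbers beside the points; DMSO replicate 4 and DAPT replicate 6 share the right end of dimension 1, and dimension 2 sets the groups apart. Right, the place of each library between the DMSO mean (0) and the DAPT mean (1), on genes called lower (x) and higher (y) without that library; all 6 DAPT libraries lie at 0.740 or above and all 6 DMSO libraries at 0.295 or below.

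To see whether each library carried the response of its label, the genes were called again without it, and its place was taken between the means of the remaining DMSO libraries, set to 0, and of the remaining DAPT libraries, set to 1. On the lower genes the DAPT libraries lay between 0.756 and 1.15, with a median of 0.977. On the same genes the DMSO libraries lay between -0.111 and 0.295, with a median of -0.035. On the higher genes the places were 0.740 to 1.04 in DAPT and -0.083 to 0.205 in DMSO. No DAPT library reached into the range of the DMSO libraries on either set. DMSO replicate 4 was the DMSO library nearest to the DAPT mean on both, at 0.295 and 0.205.

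At 6 h after removal, the differences were mostly losses of transcript. Of 11225 genes tested on the 12 libraries alone, 296 were lower in DAPT animals (2.64% of genes tested) and 86 higher (0.766%), and lower genes made up 77.5% of the 382 calls (3.40%) (edgeR's quasi-likelihood F test, Benjamini-Hochberg adjusted p under 0.05). The median lower gene differed 3.09-fold (log2 fold change -1.63, quartiles -2.29 and -1.24) and the median higher gene 2.32-fold (1.22, quartiles 0.94 and 1.58). Over all genes tested the median log2 fold change was -0.02, and 53.1% of genes had a negative sign. The 6 DAPT libraries did not overlap the 6 DMSO libraries for 202 of the 296 lower genes, and for 68 of the 86 that were higher. Over all genes tested, 1.96% were below and 0.775% above in this way.

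**Figure D2:**
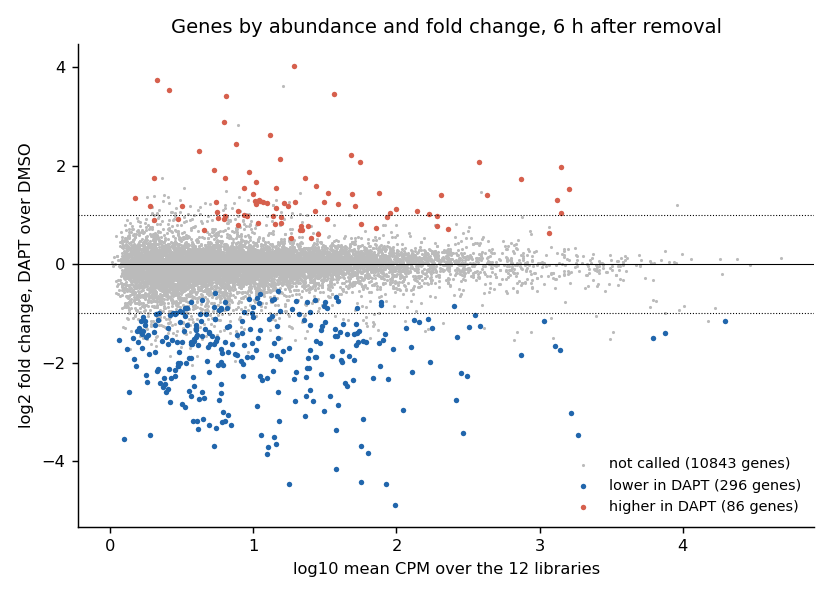
Each point is 1 of 11225 genes, with its mean CPM over the 12 libraries (log10 axis values) and its log2 fold change, DAPT over DMSO, at 6 h; dotted lines mark 2-fold differences. The 296 lower genes spread over most of the range of abundance and reach further from 0 than the 86 higher genes.

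Among the called genes, the losses were also deeper than the gains, though not in the least abundant genes (below). Of the lower genes, 255 differed at least 2-fold in the fit, 101 at least 4-fold and 32 at least 8-fold. Of the higher genes, 57 differed at least 2-fold, 13 at least 4-fold and 5 at least 8-fold. A test of the size itself, against a difference of 2-fold rather than of 0 (edgeR's glmTreat, adjusted p under 0.05), called 94 lower genes (0.837%) and 12 higher genes (0.107%), so that 88.7% of the genes past 2-fold were lower.

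Differences were found at every level of abundance. The tested genes were put in 5 bins of 2245 genes by their mean CPM over the 12 libraries, a count of reads that is not corrected for transcript length. In the lowest bin, from 1.03 to 2.81 CPM, 2.14% of genes were lower and 0.267% higher in DAPT. In the highest bin, from 31.6 to 48506 CPM, 3.30% were lower and 1.25% higher. The 3 bins between had 2.32% to 2.98% lower genes and 0.223% to 1.11% higher genes. Lower genes thus made up 88.9% and 93.1% of the calls in bins 1 and 2, and 68.8% to 72.5% in bins 3 to 5. The precision changed with abundance as well: the median standard error (SE) of a log2 fold change was 0.32 in the lowest bin and 0.21 in the highest, and the smallest difference called was 1.86-fold in the lowest bin against 1.45-fold to 1.54-fold in the others. The median log2 fold change of the lower genes was between -1.57 and -1.87 in all 5 bins. That of the higher genes was 1.55 in the lowest bin, from 6 genes, and 1.15 to 1.27 in the others. In the lowest bin the 2 directions were thus of like size. Because the mean over the 12 libraries holds both groups, the bins were also made on the DMSO libraries and on the libraries of 0 h, and the share called in the highest bin was then 5.35% and 4.86%, against 4.54%, while in the lowest bin it was 1.60% and 2.72%, against 2.41%.

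**Figure D3:**
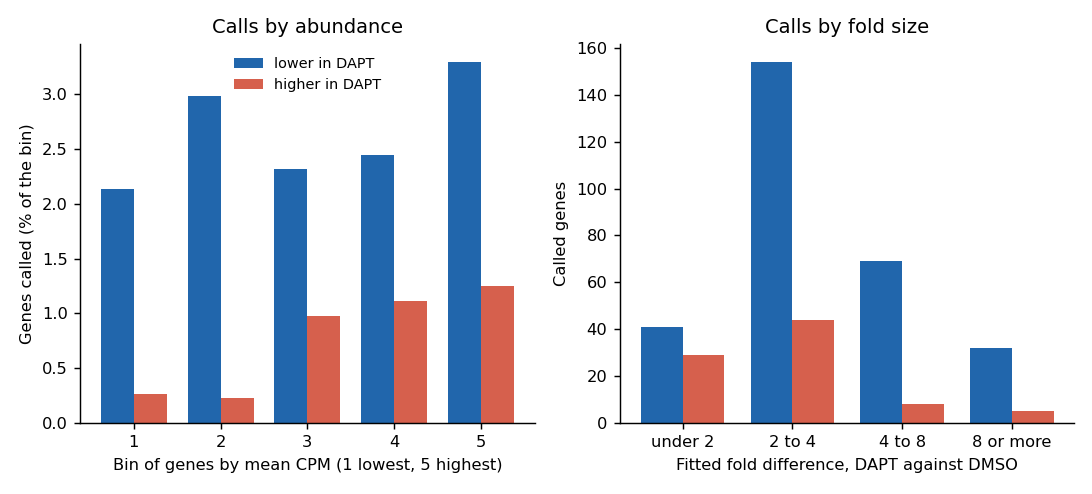
Left, the percent of genes called lower (blue) and higher (red) in DAPT in each of 5 bins of 2245 genes by mean CPM. Right, the number of called genes in each class of fitted fold difference; 154 of 296 lower genes and 44 of 86 higher ones fall between 2-fold and 4-fold.

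Taken over both directions, the most abundant transcripts were not called less often than all genes tested. Of the 20 genes with the highest mean CPM, 2 were called lower and 0 higher by edgeR's test (10% called). Of the first 100 genes, 4 were lower and 0 higher (4% called), against 3.40% of all genes tested. By direction, 2.64% of all genes tested were lower and 0.766% higher. The 4 lower and 0 higher of the first 100 are near those shares. At an unadjusted p under 0.05 there were 7 of the 20 (35%) and 12 of the 100 (12%), against 1074 of all 11225 genes (9.57%). The log2 fold changes of the 20 had a median of 0.03 and lay between -1.39 and 1.21. Called genes with a mean of at least 100 CPM numbered 27 lower and 14 higher. How many tested genes reached that level was not counted, so these are not shares.

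Counted in reads, the lower genes took 2.75 ± 0.938% of a library in DAPT and 7.10 ± 2.18% in DMSO (SD, n = 6 each). By library the share had a lowest, median and highest value of 1.83%, 2.67% and 4.36% in DAPT, and of 4.29%, 7.31% and 9.61% in DMSO. The ranges touched, with DAPT replicate 2 at the top of its group just above DMSO replicate 4 at the bottom of its own. Without DMSO replicate 4 the DMSO libraries lay between 4.89% and 9.61% (mean 7.67%), above every DAPT library. The higher genes took 1.64 ± 0.155% in DAPT and 0.607 ± 0.0754% in DMSO, between 1.41% and 1.88% in DAPT and between 0.515% and 0.690% in DMSO, without overlap (0.522% to 0.690% in DMSO without replicate 4). The same libraries chose the genes, so no test was made of these shares. Few genes carried most of the summed CPM difference between the groups. Of the 296 lower genes, 10 held 81.8% of it and the first 3 at least 50%. Of the 86 higher genes, 10 held 82.3% of theirs. A sum of CPM differences gives most weight to abundant genes, and no like sum over all genes is given here. The first 3 lower genes were also called lower at 0 h, but did not pass at 3 h (edgeR adjusted p = 0.0705, 0.0675 and 0.0776). The first of them was an abundant lower gene at 12234 ± 4751 CPM in DAPT and 27286 ± 7059 CPM in DMSO (log2 fold change -1.16 with an SE of 0.27, edgeR adjusted p = 0.0254), which held 32.1% of the difference of the lower genes. Its libraries overlapped, between 7908 and 20956 CPM in DAPT and between 17798 and 35829 CPM in DMSO. The 32 genes lower by 8-fold or more took 0.083 ± 0.053% of the reads in DAPT and 0.798 ± 0.446% in DMSO, and the 154 genes lower by 2-fold to 4-fold took 2.53 ± 0.869% in DAPT and 5.86 ± 1.66% in DMSO.

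The gene TRINITY_DN38319_c0_g1 was the most abundant of the genes lower by at least 2-fold whose libraries did not overlap, and the sources used here do not give what it encodes. In DAPT it stood at 2903, 6876, 5557, 3505, 2768 and 3350 CPM in replicates 1 to 6. In DMSO the values were 13124, 14136, 10651, 10687, 7738 and 9177 CPM. The highest DAPT library, replicate 2, lay below the lowest DMSO library, replicate 5. The means were 4160 ± 1669 CPM in DAPT and 10919 ± 2387 CPM in DMSO, or 2.62-fold (log2 fold change -1.39 with an SE of 0.26, edgeR adjusted p = 0.00591), and the test against 2-fold did not pass (adjusted p = 1). Earlier, the log2 fold change was -1.45 at 0 h (edgeR adjusted p = 0.0168) and -1.14 at 3 h, where it did not pass (adjusted p = 0.0675).

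The deepest loss among genes with separate libraries and a mean of at least 1 CPM was that of TRINITY_DN11402_c0_g1. Its values in DAPT were 4.94, 12.9, 8.28, 4.59, 5.09 and 2.73 CPM, which are 21 to 102 reads. In DMSO they were 269, 238, 189, 121, 119 and 194 CPM. Every DAPT library thus lay far below every DMSO library. The mean of 6.41 ± 3.63 CPM in DAPT was 3.40% of the 189 ± 60.5 CPM in DMSO, and the fitted difference was 29.5-fold (log2 fold change -4.88 with an SE of 0.38, edgeR adjusted p = 5.50e-06). It passed the test against 2-fold as well (adjusted p = 2.07e-05). In the libraries of 0 h and of 3 h the log2 fold changes were -5.35 (SE 0.32) and -5.26 (SE 0.25), and between 0 h and 6 h its difference changed by 0.48 (SE 0.44, edgeR adjusted p = 0.966).

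**Figure D4:**
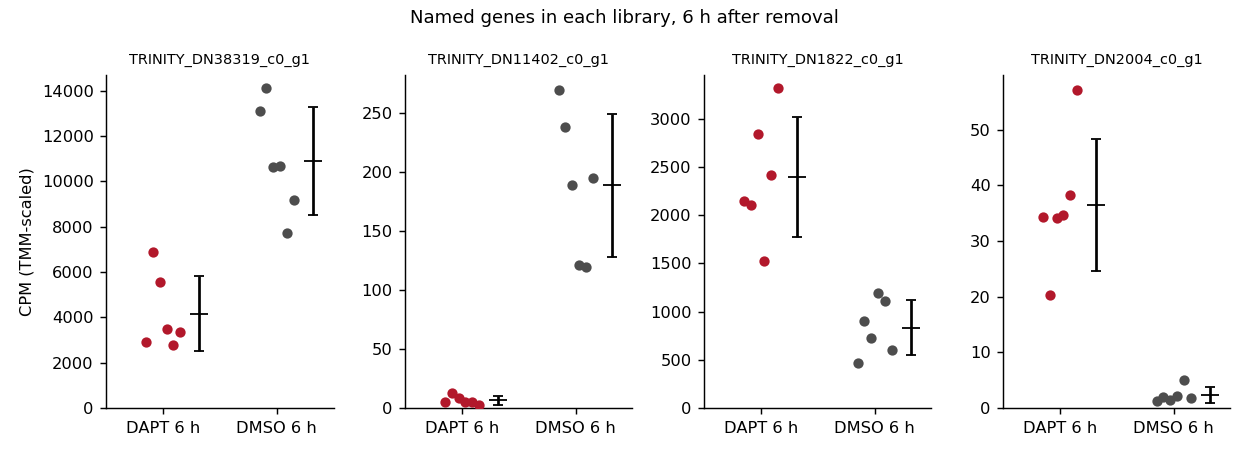
CPM of the 4 named genes in each of the 6 DAPT and 6 DMSO libraries of 6 h (points, replicates 1 to 6 from left to right), with the mean and SD beside them, on linear axes that start at 0. In the first and second panel all DAPT libraries lie below all DMSO libraries, and in the remaining panels all DAPT libraries are the higher ones.

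Of the genes higher by at least 2-fold with separate libraries, TRINITY_DN1822_c0_g1 was the most abundant. It stood at 2154, 2108, 2843, 1527, 2422 and 3319 CPM in DAPT replicates 1 to 6. In DMSO it stood at 470, 907, 727, 1191, 1106 and 598 CPM. The lowest DAPT library, replicate 4, was above the highest DMSO library, which was also replicate 4. The means were 2395 ± 625 CPM in DAPT and 833 ± 285 CPM in DMSO (2.88-fold, log2 fold change 1.52 with an SE of 0.26, edgeR adjusted p = 0.00268), and the test against 2-fold did not pass (adjusted p = 0.455). The log2 fold change was 1.67 (SE 0.25) at 0 h and 1.78 (SE 0.25) at 3 h. Another gene of the same assembly component was called higher too, at 1868 ± 575 CPM in DAPT and 757 ± 235 CPM in DMSO. Genes of 1 component can share sequence, and the sources used here do not say how reads were divided between them, so their values are uncertain singly. Such a partner in the table was found for 28 lower genes (9.46%) and 8 higher ones (9.30%), against 4.49% of all genes tested, and 16 of the 28 and 2 of the 8 had a partner called in the same direction.

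The gene with the largest gain under the same conditions, TRINITY_DN2004_c0_g1, was low in control animals. In DAPT its values were 34.3, 20.3, 34.1, 34.7, 38.2 and 57.1 CPM. In DMSO they were 1.16, 2.00, 1.36, 2.21, 5.04 and 1.87 CPM, which are 7 to 28 reads. The lowest DAPT library was above the highest DMSO library, replicate 5, which itself stood above the other 5. The means of 36.4 ± 11.9 CPM in DAPT and 2.27 ± 1.41 CPM in DMSO gave a 16.2-fold difference (log2 fold change 4.02 with an SE of 0.35, edgeR adjusted p = 1.06e-05), which passed the test against 2-fold (adjusted p = 8.23e-05). At 0 h and 3 h its log2 fold changes were 4.97 (SE 0.31) and 4.76 (SE 0.40), with DAPT means of 66.2 ± 14.6 and 51.3 ± 21.1 CPM and DMSO means of 2.13 ± 1.21 and 1.94 ± 1.21 CPM. Between 0 h and 6 h its difference changed by -0.92 (SE 0.47), which missed the threshold (edgeR adjusted p = 0.966).

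Without DMSO replicate 4, more genes were called and the balance was similar. Of 11454 genes then tested, 340 were lower and 108 higher in DAPT, so that 75.9% of the calls were lower. These included 278 of the 296 genes lower and 84 of the 86 genes higher with all 12 libraries. The median differences were 3.05-fold for lower and 2.24-fold for higher genes, and a size of 8-fold or more was reached by 38 lower and 5 higher genes. Libraries of the groups were separate for 271 of the 340 lower genes and for 90 of the 108 higher ones. The share of all genes tested that were separate here was not counted. Separation is also easier to reach with fewer libraries, so these counts cannot be set against those of all 12. The test against 2-fold called 113 lower genes, and 19 higher genes in place of 12, the count that this library moved by over 1.5 times. The log2 fold changes of the named genes were then -1.37 for TRINITY_DN38319_c0_g1, -4.96 for TRINITY_DN11402_c0_g1, 1.68 for TRINITY_DN1822_c0_g1 and 4.05 for TRINITY_DN2004_c0_g1, all still called. By abundance, 2.53% of genes were lower and 0.262% higher in the lowest bin, and 3.67% lower and 1.53% higher in the highest.

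The genes called at 6 h were followed back in the libraries of 0 h and 3 h, which are other samples and were each fitted alone. Whether samples of different times came from the same incubation is not given in the labels. Nearly all of them had a fitted difference of the same sign at those times. Of the 296 lower genes, 250 were called lower at 0 h, which is 84.5% of the list of 6 h and 39.2% of the 638 genes lower at 0 h (5.29% of genes tested there). At 3 h, 239 were called lower, 80.7% of the list of 6 h and 46.6% of the 513 genes lower then (4.59%). Of the 86 higher genes, 74 were called higher at 0 h, 86.0% of the list of 6 h and 32.5% of the 228 genes higher at 0 h (1.89%). At 3 h it was 73, 84.9% of the list of 6 h and 47.7% of the 153 genes higher then (1.37%). Some genes of the earlier lists were not tested at 6 h and could not be called there. Of those lower, 585 of 638 from 0 h and 470 of 513 from 3 h were tested. Of those higher, it was 213 of 228 and 148 of 153. A gene not called at 6 h is not thereby shown to have returned. No gene of either list of 6 h was called in the opposite direction at 0 h or 3 h. The sign of the fitted difference was the same in 295 of 296 lower genes at 0 h, in 291 of 291 at 3 h and in all 86 higher genes at both times, where 49.2% and 42.5% of all genes had a negative sign at 0 h and 3 h. For the genes called at 6 h without DMSO replicate 4, 84.1% of the lower and 84.3% of the higher ones were called alike at 0 h, and 78.2% and 81.5% at 3 h. At all 3 times 219 lower genes were called, and 69 higher ones.

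**Figure D5:**
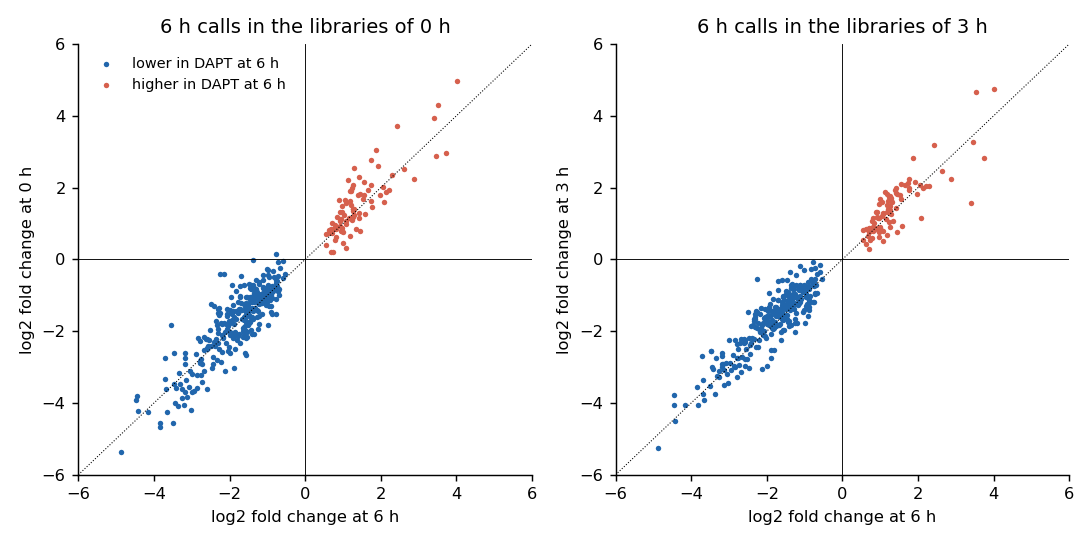
Log2 fold changes, DAPT over DMSO, of the 296 lower (blue) and 86 higher (red) genes called at 6 h, at 6 h (x) and in the separate libraries of 0 h (left) and 3 h (right, 291 of the lower genes tested); the dotted line marks equal values. The points lie along the line, with 1 lower gene above 0 at 0 h.

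The sizes of the difference at the 3 times were as follows. For the lower genes the median log2 fold change was -1.54 at 0 h and -1.47 at 3 h, against -1.63 at 6 h, where they were chosen, which inflates that value. For the higher genes the medians were 1.34 at 0 h and 1.35 at 3 h, against 1.22 at 6 h. The 32 genes lower by 8-fold or more at 6 h had medians of -3.66 at 0 h and -3.25 at 3 h, against -3.44 at 6 h, and all 32 were called lower at 0 h and all 31 tested at 3 h. Of the 41 genes lower by less than 2-fold at 6 h, 24 were called at 0 h and 28 at 3 h, with medians of -0.83, -0.91 and -0.85. The 5 genes higher by 8-fold or more had medians of 3.93 at 0 h and 3.28 at 3 h, against 3.52 at 6 h. Of these 5, 4 were called higher at 0 h and 4 at 3 h. Taken from the other side, 571 of the 585 genes called lower at 0 h and tested at 6 h still had a lower fitted value in DAPT at 6 h, with a median of -1.26 at 0 h, inflated by the choice there, and -1.12 at 6 h. Of the 213 genes called higher at 0 h and tested at 6 h, 193 were still higher in the fit at 6 h, with medians of 1.06 at 0 h and 0.65 at 6 h.

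At 6 h alone, 26 lower and 8 higher genes were called. Their median log2 fold changes were -0.69 at 0 h and -0.63 at 3 h, against -1.30 at 6 h, for the lower genes, and 0.52 and 0.62, against 1.03, for the higher genes. At both earlier times 25 of the 26 and 8 of the 8 had the same sign as at 6 h. Tested directly in the 24 libraries of 0 h and 6 h, a changed difference was called in 0 of the 382 genes called at 6 h (edgeR's quasi-likelihood F test, lowest adjusted p = 0.566), with 28 lower genes (9.46%) and 13 higher genes (15.1%) at an unadjusted p under 0.05, against 468 (3.83%) of all 12225 genes tested for a change. The choice of these genes used the libraries of 6 h that enter this test, so no test was made of these shares. That 0 of the 382 were called does not show that their differences stayed the same. Among all 12225 genes tested for a change, 1 passed (0.00818%). That gene, TRINITY_DN624_c0_g1, is named here because it was the 1 call, chosen after its values were seen, and it was no longer different at 6 h. It stood at 17.7 ± 2.73 CPM in DAPT and 5.82 ± 0.608 CPM in DMSO at 0 h (log2 fold change 1.61, edgeR adjusted p = 3.09e-06), and at 6.68 ± 1.95 CPM in DAPT and 7.17 ± 1.23 CPM in DMSO at 6 h (log2 fold change -0.09, SE 0.21, adjusted p = 1.00).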

How the data were processed

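RNA of whole animals was made into strand-specific mRNA libraries, sequenced on 3 lanes at 100 bp; trimming removed reads under a quality of 20 or a length of 30 bp, per the labels' protocols. RSEM, Bowtie2 and DESeq2 1.18.1 appear in the submitters' processing notes, without their roles. The authors deposited expected counts per gene for 12410 genes, of which 98.9% of values were not whole. The deposited table holds no 0 (lowest value 0.09), so a gene with no read in some library is outside the analysis. A gene silent in a whole group could therefore not be among the fold sizes above. The sources used here do not say how the assembly was made.

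Counts were rounded (148 values became 0 at 6 h), filtered with filterByExpr (1185 genes removed), scaled with TMM factors and fitted with the quasi-likelihood F test of edgeR 4.0.16 under R 4.3.3, on the 12 libraries of 6 h alone. SE is the log2 fold change divided by the root of its F statistic. CPM are scaled within a time, and are not per transcript length. Each earlier time was fitted likewise, and the change of the difference on the 24 libraries of 0 h and 6 h. Calls had a Benjamini-Hochberg adjusted p under 0.05. Single values over libraries were compared by exact permutation tests (two-sided, smallest possible p = 0.00216). The fit was tested on simulated counts.

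In each direction the named genes are the most abundant called gene with a fitted difference of at least 2-fold, and the called gene of the largest fold with a mean of at least 1 CPM, both with libraries that do not overlap. The genes described and the tests were chosen with earlier results of these data known. Replicates are biological repeats per the labels. No pair of replicates agreed within sampling noise. Alternatives were other scalings and filters, limma 3.58.1, DESeq2 1.42.0, surrogate variables (sva 3.50.0), a block and leaving out each library. Which library ran on which lane is not given, so no lane effect was tested.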

Additional observations from a re-analysis of the deposited data

Results flagged for a closer look

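Among 30 checks for a library far from the other 5 of its group, 4 values from 3 libraries stood out, where chance gives about 1 in 20, or 1.5. The median Spearman correlation of DAPT replicate 6 with its group was 0.895, against 0.932 to 0.945 for the other DAPT libraries. That of DMSO replicate 4 was 0.834, against 0.919 to 0.959 for the other DMSO libraries. DMSO replicate 4 also had 1091 genes under 1 CPM, against 143 to 443. For TRINITY_DN2004_c0_g1, DMSO replicate 5 stood at 5.04 CPM, against 1.16 to 2.21 CPM in the other DMSO libraries, and without it the log2 fold change was 4.40.

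The difference of TRINITY_DN624_c0_g1 changed between the times by -1.68 on the log2 scale (6 h minus 0 h, SE 0.25, edgeR adjusted p = 0.00806). Leaving out each of the 24 libraries in turn gave -1.77 to -1.58, with adjusted p between 0.00336 and 0.0263.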

How the results depend on the processing

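No setting called any of the 382 genes in the opposite direction. An adjusted p under 0.01 left 241 genes, 186 lower and 55 higher. One fit over all 36 libraries called 622 (483 lower, 139 higher), limma-voom with library weights 677 (533 and 144), and surrogate variables 925 (702 and 223), with 191 lower and 23 higher past 2-fold. DESeq2 called 537 genes (394 lower, 143 higher). The cause of these moves was not tested. With library totals as the sole scaling, the median gene stood at a log2 fold change of 0.11, against -0.02, and the test called 212 lower and 93 higher genes, or 69.5% lower. Leaving out each library in turn gave 303 to 448 genes, 234 to 340 lower and 63 to 108 higher, and past 2-fold 76 to 113 lower and 10 to 19 higher, the 19 without DMSO replicate 4. Without DMSO replicate 4 and DAPT replicate 6, an alternative chosen after seeing the data, 325 were lower and 104 higher. The 4 named genes kept direction and call in all of these.

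Same-numbered libraries of the groups did not consistently deviate together. Their correlations were 0.35, 0.49, -0.04, -0.53, 0.53 and -0.62 for replicates 1 to 6. They were over 0.1 in 3 of 6 pairs, and 1 of 6 DAPT libraries correlated best with its own number. The numbers were therefore not taken as a pairing. With the replicate block, 217 genes were lower and 50 higher.

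The lowest bin of abundance, at 1.03 to 2.81 CPM, had the largest median SE of the 5 (0.32, against 0.21 in the highest), and the smallest difference called there was 1.86-fold. Counting error and spread between replicates were not separated.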

Other observations

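Beside the called genes, 218 of the 530 genes with a fitted difference of at least 2-fold at 6 h did not pass edgeR's test. Of these, 165 had a lower and 53 a higher fitted value in DAPT, and 139 and 26 of them had an unadjusted p under 0.05. Their median SE was 0.44 for the 165 and 0.58 for the 53, against 0.30 and 0.24 for the called genes of that size, and their median CPM was 4.04 and 4.57, against 7.71 and 15.3.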
